A study of Homo sapiens with 4 samples.

Results

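The mRNAs of 10 secreted cytokines were followed in hFOB1.19 cells: CSF2, CSF3, IL6, LIF, IL11, IL1A, IL1B, IL33, CCL2 and CCL7. They were chosen by gene symbol with their values in these same libraries already known, so that their differences from day 0 are described here and not tested. The 10 symbols are 10 of 19610 in the mRNA table, and their 34 transcripts are 34 of 79798. hFOB1.19 is a line of human fetal osteoblasts, kept dividing by a temperature-sensitive SV40 large T antigen that all 4 libraries share. Total RNA was extracted, and ribosomal RNA was removed before sequencing. There was 1 library of control cells on day 0 of differentiation and 1 each of cells undergoing mineralization on days 3, 6 and 9. According to the study's methods, cells were grown at a lower temperature and then moved to a higher temperature for mineralization. Time in culture, differentiation, temperature and the state of the T antigen therefore changed together after day 0 and cannot be told apart. With 1 library per time point of 1 line, no value has an error and no difference between days has a replicate check.

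The cytokines fall into families by the receptors they use. CSF2 (GM-CSF) and CSF3 (G-CSF) drive the growth and maturation of granulocytes and macrophages. IL6, LIF and IL11 each bind a receptor of their own and then signal through the shared chain IL6ST (gp130) to JAK kinases and STAT3. IL1A, IL1B and IL33 are made as precursors without a signal peptide and signal through receptors of the IL-1 family and the adaptor MYD88, while CCL2 and CCL7 are chemokines that attract monocytes. In bone, IL-1, IL-6, LIF and IL-11 are known as osteoblast products that act on the formation of osteoclasts, the cells that resorb bone.

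The starts of CSF2, IL6 and IL1B, which had the largest log2 ratios to day 0 of the 10 genes on day 9, are shown first. RefSeq's table of promoters (build GRCh38.p14) held 7 of the 10 genes, and CSF3, LIF and CCL2 were not matched. Each sequence is the 250 bases before the start of the gene, 5′ to 3′ on the gene's own strand, and capitals mark matches to any of 7 short motifs searched on both strands (the TATA box on the sense strand only). CSF2 lies on chromosome 5 (chr5:132073539-132073788, plus strand), IL6 on chromosome 7 (chr7:22726950-22727199, plus strand) and IL1B on chromosome 2 (chr2:112836780-112837029, minus strand).
CSF2: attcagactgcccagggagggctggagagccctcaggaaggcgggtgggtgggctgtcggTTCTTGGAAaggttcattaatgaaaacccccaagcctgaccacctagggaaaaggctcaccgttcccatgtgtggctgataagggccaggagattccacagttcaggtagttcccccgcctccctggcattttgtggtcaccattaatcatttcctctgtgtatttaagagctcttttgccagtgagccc
IL6: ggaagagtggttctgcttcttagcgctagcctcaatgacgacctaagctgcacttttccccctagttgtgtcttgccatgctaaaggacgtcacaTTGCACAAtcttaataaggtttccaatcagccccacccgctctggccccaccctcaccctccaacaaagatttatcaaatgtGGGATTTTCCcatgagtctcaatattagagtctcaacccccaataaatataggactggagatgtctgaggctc
IL1B: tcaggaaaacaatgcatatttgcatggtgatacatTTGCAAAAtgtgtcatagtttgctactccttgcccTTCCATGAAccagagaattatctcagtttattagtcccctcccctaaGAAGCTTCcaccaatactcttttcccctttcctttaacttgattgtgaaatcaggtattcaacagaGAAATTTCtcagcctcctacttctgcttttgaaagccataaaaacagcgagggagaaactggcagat

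In the CSF2 window, the capitals are a match to the STAT motif TTCNNNGAA, 190 to 182 bases before the start. The IL6 window held a C/EBP match (TTGCNNAA) 155 to 148 bases before the start and a match to the NF-kB motif 73 to 64 bases before it. In the IL1B window, a C/EBP match lay 215 to 208 bases upstream, a STAT match 180 to 172 bases upstream, and 2 matches to a pair of inverted heat shock element units (GAANNTTC) 133 to 126 and 67 to 60 bases upstream. No motif was shared by all 3 windows.

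Over the 7 genes matched, the AP-1 motif TGANTCA was in windows of CCL7, IL11 and IL1A, and the STAT motif in windows of CCL7, CSF2 and IL1B. Each of these motifs was in 6.57% of all 35116 windows of the same length. C/EBP matches were in 2 of the 7 genes and in 9.05% of all windows. The 7 genes had 9 windows in all, so a count by gene leaves more room for a match than a share by window. The NF-kB motif was in the IL6 window alone of the 7 genes (5.21% of all windows) and the heat shock motif in that of IL1B alone (5.78%). The letters of the TATA box, TATAAA, were in CCL7 and IL1A (6.8% of all windows). They lay 30 to 25 bases before the start in CCL7, but 239 to 234 bases before it in a window of IL1A. The CRE motif TGACGTCA was in none of the 7 and in 1.65% of all windows. A match is a string of letters and not a measured binding site, and a missing match says only that these letters were not in the 250 bases searched.

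**Figure D1:**
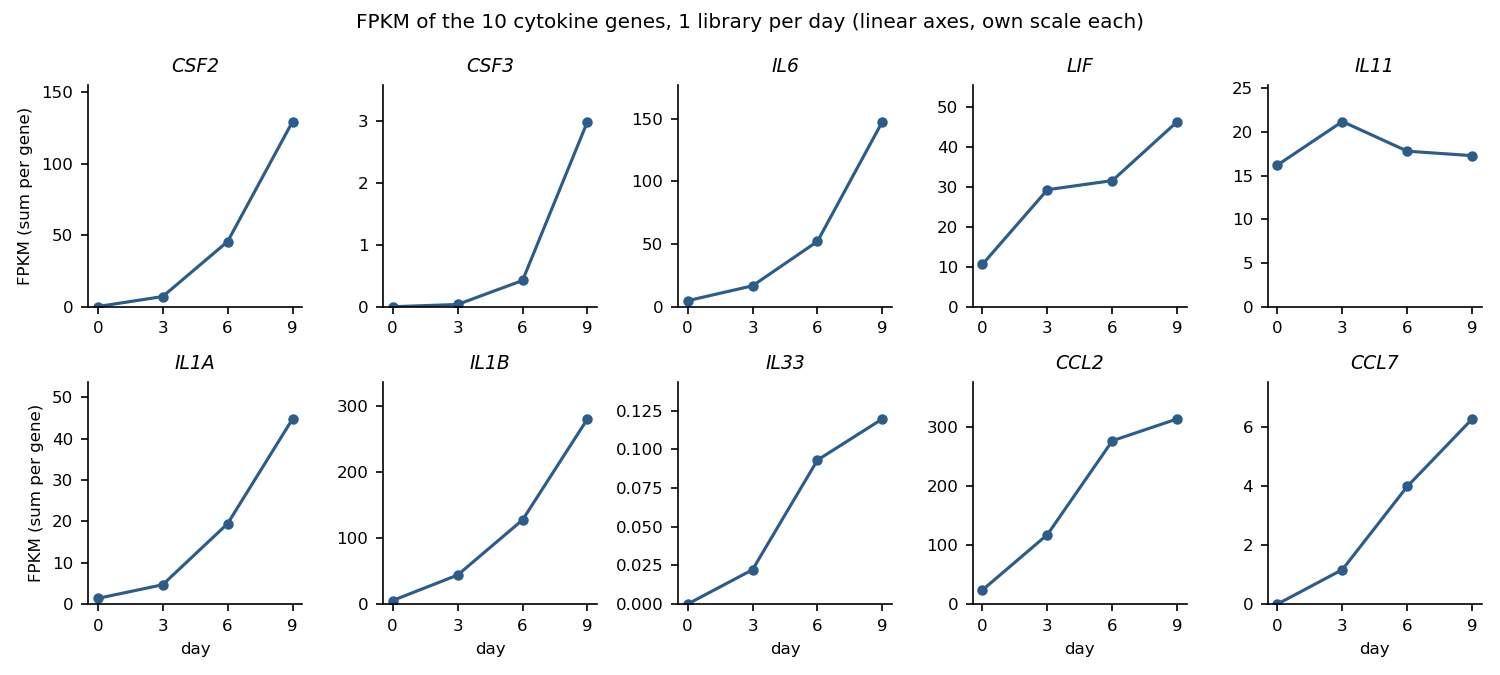
FPKM of each of the 10 cytokine genes (y axis, linear, its own scale in each panel) by day of differentiation (x axis), with 1 point per library and no error bars because each day has 1 library. All genes but IL11 were higher at each later day, with CCL2 reaching 313 and IL1B 280.4 on day 9, while IL33 stayed at or below 0.12.

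FPKM, a count of fragments scaled by the length of the transcript and the size of the library, was summed over the transcripts of each gene. Because FPKM is per length, levels may be set side by side between genes. Changes are given as the log2 ratio of (FPKM + 1) to that of day 0, which understates the change of low genes, and a gene is counted as higher or lower where this ratio is past 2-fold. Counts are taken over genes that reached 1 FPKM in any library, which 12859 of all genes and 9 of the 10 cytokine genes did. IL33 did not, and CSF2, CSF3 and CCL7 did so only through their later days, when they were high. CSF3, CCL7 and IL33 were listed at 0 on day 0.

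By these limits 7, 7 and 8 of the 9 genes were higher on days 3, 6 and 9, and 7 were higher on all 3 days. Of all genes, 8.13%, 9.01% and 9.6% were higher on those days, and 5.93% on all 3. None of the 9 was lower on any day, against 5.3%, 6.42% and 6.52% of all genes on days 3, 6 and 9. The genes were chosen from this same contrast, so these counts describe the choice and are no support for it. In RNA from whole cultures, a change in the share of cells that make a transcript and a change in the amount per cell cannot be told apart.

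The steps between the later days fall within the period at the higher temperature. From day 3 to day 6, 6 of the 9 genes were higher by 2-fold (CSF2, IL6, IL1A, IL1B, CCL2 and CCL7), while 0.607% of all genes were. From day 6 to day 9, 5 of the 9 were higher (CSF2, CSF3, IL6, IL1A and IL1B), against 0.381% of all genes. CSF3 reached 1 FPKM only on day 9, so its place among the 9 rests on the same value as its rise in this step. These steps use the same day 6 and day 9 libraries as the ratios to day 0, so they are not independent of how the genes were chosen. IL11 was the only gene of the 9 that was not higher at each successive day.

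**Figure D2:**
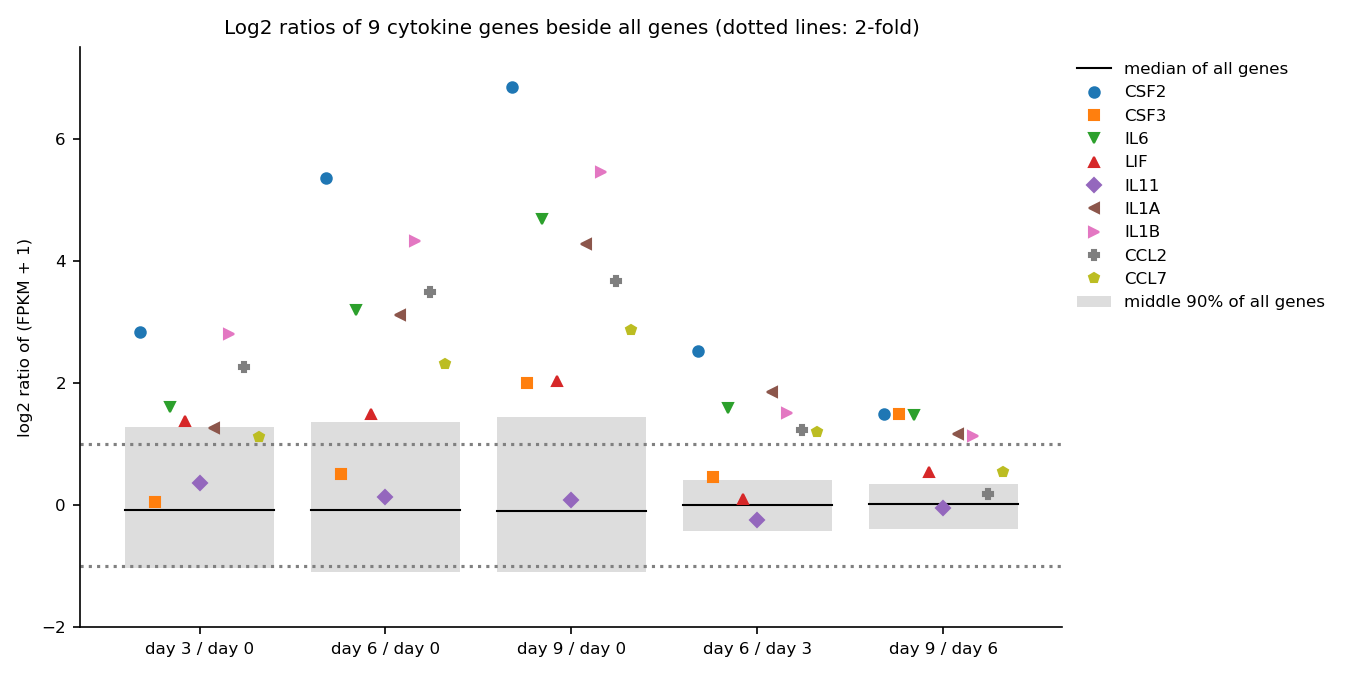
Log2 ratios of (FPKM + 1) on the y axis for 9 cytokine genes (symbols), in 5 comparisons of days (x axis), beside the median (black line) and the middle 90% (grey bar) of 12859 genes, with dotted lines at 2-fold. CSF2 stood highest from day 0 to each later day (6.84 on day 9), IL11 lay inside the grey bar in every comparison, and from day 6 to day 9 the bar spans -0.39 to 0.35 while CSF2, CSF3, IL6, IL1A and IL1B lie between 1.13 and 1.49.

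CSF2 had the largest change of the set. Its only transcript, ENST00000296871, measured 0.137, 7.13, 45.6 and 129.5 FPKM on days 0, 3, 6 and 9. Its log2 ratios to day 0 were 2.84, 5.36 and 6.84, and only 2 of all genes had a larger ratio on day 9. In the order of the 12859 genes by level, CSF2 moved from percentile 0.669 on day 0 to percentile 95.1 on day 9.

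The day 0 level of CSF2 rests on few fragments, and the size of its ratio depends on how it is counted. Among 51 genes with 1 transcript spanning 700 to 1000 bases on the genome and a value above 0 on day 0, the 10th lowest value was 0.0533 FPKM, so that 0.137 FPKM is of the order of a few fragments. Without the added 1, FPKM was 949-fold that of day 0 on day 9, and with 0.1 added the log2 ratio was 9.10. The steps between later days, which do not use day 0, were 2.52 from day 3 to day 6 and 1.49 from day 6 to day 9 on the log2 scale.

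CSF3 appeared late and stayed low. It was listed at 0 on day 0 and measured 0.0368, 0.425 and 3.00 FPKM on the later days in turn. Its log2 ratio of 2.0 on day 9 was the only value past 2-fold, since days 3 and 6 gave 0.05 and 0.51. With 0.1 added in place of 1, day 6 also passed 2-fold (log2 ratio 2.39) and day 9 had 4.95, so the size of its change is not fixed by these data. Of its 6 transcripts, ENST00000394149 made up 65.7% of the sum on day 9, and at these levels the division among transcripts rests on few fragments.

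IL6, the cytokine for which the family that signals through gp130 is named, was measurable from the start. Its levels were 4.81, 16.7, 52.2 and 148 FPKM at the 4 time points in turn. These are log2 ratios to day 0 of 1.61, 3.19 and 4.68, and 15 of all genes had a larger ratio on day 9. The steps of the later days were nearly equal on the log2 scale, at 1.59 from day 3 to day 6 and 1.48 from day 6 to day 9.

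The makeup of IL6 by transcript also differed between days. ENST00000258743 measured 0.878, 8.96, 37.1 and 101.1 FPKM on days 0, 3, 6 and 9, which is 18.2%, 53.6%, 71.1% and 68.4% of the gene. ENST00000426291 was the most abundant on day 0 and measured 2.28, 4.99, 14.1 and 44.9 FPKM, from 47.4% of the gene on day 0 to 30.4% on day 9. Another transcript, ENST00000407492, held 34.4% of the gene on day 0 (1.66 FPKM), was listed at 0 on days 3 and 6 and measured 0.760 FPKM on day 9. Both leading transcripts were therefore higher on each later day than on the day before, and the change of ENST00000258743 (log2 ratio 5.76 on day 9) exceeded that of ENST00000426291 (3.81). Division of reads among overlapping transcripts is an estimate, and its error is not given in the table.

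LIF, which keeps progenitor cells undifferentiated in several tissues, changed early. From 10.6 FPKM on day 0 it stood at 29.3, 31.6 and 46.4 FPKM on the later days in turn. Most of the day 9 log2 ratio of 2.03 was present on day 3 (1.38), and the step from day 3 to day 6 was 0.10. Its transcripts ENST00000249075 and ENST00000403987 kept similar shares, the first holding between 46.7% and 58.9% of the gene on the 4 days.

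IL11, the remaining gp130 cytokine and a known stimulus of osteoclast formation, was the exception among the 9 genes. With 16.2, 21.2, 17.8 and 17.3 FPKM in the 4 libraries in order of time, it was highest on day 3 and nearly back at its first level on day 9. The log2 ratios of 0.37, 0.13 and 0.09 were all within 2-fold. On day 0 it had the second highest level of the 10 genes after CCL2, and on day 9 it was seventh. Its leading transcript ENST00000585513 measured 7.30, 12.7, 10.3 and 9.56 FPKM and the next, ENST00000264563, 7.07, 6.86, 6.38 and 6.20 FPKM, so the day 3 maximum of the gene came from the former.

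**Figure D3:**
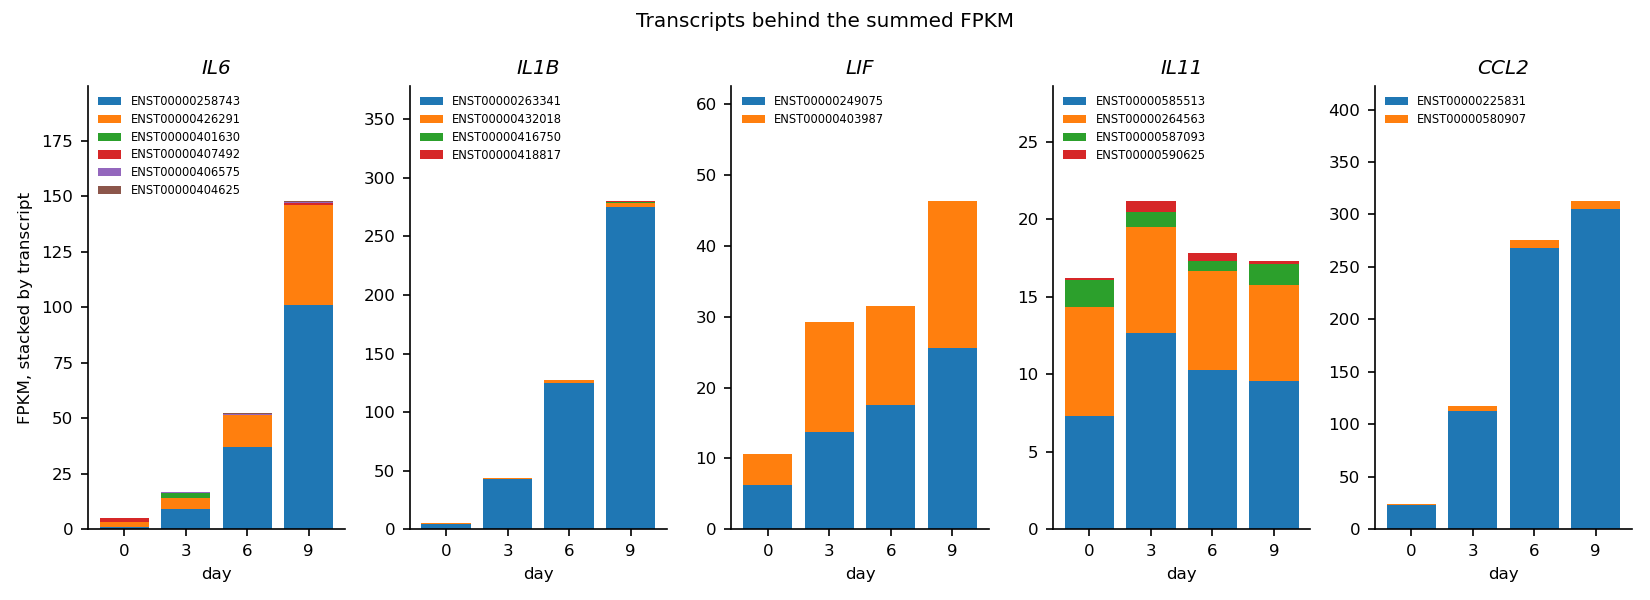
FPKM of each transcript (stacked bars, y axis from 0, its own scale in each panel) by day (x axis, 1 library each) for IL6, IL1B, LIF, IL11 and CCL2. In IL1B and CCL2 a single transcript held nearly the whole bar on day 9 (98.3% and 97.7%), in IL6 the share of ENST00000258743 went from 18.2% on day 0 to 68.4% on day 9, and IL11 was the only gene of the 5 whose bars were not taller at each later day.

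IL1A and IL1B, which lie next to each other on chromosome 2 and both bind the receptor IL1R1, were higher on every later day. IL1A, from its single transcript, had 1.37, 4.68, 19.5 and 44.8 FPKM in the 4 libraries in order of time. Its log2 ratios were 1.26, 3.11 and 4.27. IL1B had 5.41, 43.9, 127 and 280.4 FPKM, which are log2 ratios of 2.81, 4.32 and 5.46.

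IL1B was above IL1A on each of the 4 days. It had the second largest day 9 ratio of the 10 genes after CSF2, with 10 of all genes above it, and ranked 260 by level among the 12859 genes on day 9. ENST00000263341 carried 84.9% of IL1B on day 0 and 98.3% on day 9 (4.60 and 276 FPKM). The pair differed in timing: IL1B had passed 4-fold by day 3 and IL1A by day 6.

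IL33, a nuclear protein released from damaged cells, was near the lower end of what the libraries could show. It was listed at 0 on day 0 and measured 0.0222, 0.0932 and 0.12 FPKM on days 3, 6 and 9. No ratio is given for it, since values of this size rest on few fragments.

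CCL2, the monocyte chemoattractant MCP-1, was the most abundant of the 10 genes in every library. Its level was 23.8 FPKM before mineralization and then 117, 276 and 313 FPKM. The log2 ratios were 2.26, 3.48 and 3.66, and only 0.18 of this arose between day 6 and day 9. In that last step CCL2 lay within the middle 90% of all genes, while CSF2, IL6, IL1A and IL1B were past 2-fold.

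CCL7, a chemokine of the same family whose gene is the next protein-coding gene after CCL2 on chromosome 17, followed at a far lower level. It was listed at 0 on day 0 and measured 1.17, 3.99 and 6.27 FPKM afterwards, all in ENST00000378569. Its log2 ratios were 1.12, 2.32 and 2.86, and with 0.1 added 3.66, 5.35 and 5.99. Because CCL2 and CCL7 are related in sequence, a misplaced read between them would weigh more on CCL7, and how shared reads were assigned is not given in the sources used here.

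By level, the order on day 0 was CCL2, IL11, LIF, IL1B, IL6, IL1A and CSF2, with CSF3, IL33 and CCL7 listed at 0. On day 9 it was CCL2, IL1B, IL6, CSF2, LIF, IL1A, IL11, CCL7, CSF3 and IL33. Neighbours such as LIF (46.4 FPKM) and IL1A (44.8 FPKM) on day 9 are close, and without replicates their order cannot be separated from the spread between libraries.

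The pattern of 3 genes was set beside all others, by the distance between their log2 ratios to day 0 on days 3, 6 and 9. Nearest to CSF2 was SAA1, an acute-phase protein, with 1.12, 9.94, 46.7 and 208 FPKM on days 0, 3, 6 and 9 (distance 1.02), followed by CCND2 (1.58) and G0S2 (1.70). IL1A itself was nearest to IL6 (0.54), followed by C3, the central complement component (0.68; 3.01, 16.9, 47.4 and 100.1 FPKM) and FOLR3 (0.74). For IL1B the nearest was UBD, a ubiquitin-like protein, with 0.0655, 4.41, 20.5 and 49.8 FPKM (0.48), followed by G0S2 (0.78) and TNFSF15 (0.81). CCND2, UBD, FOLR3 and TNFSF15 were below 1 FPKM on day 0 (0.267, 0.0655, 0.147 and 0.716). They passed the minimum only through later days, and their ratios depend on the added 1. All of the distances rest on 4 libraries that the genes share, and taking Pearson's correlation over the 4 libraries instead named none of the same 3 genes for any of CSF2, IL6 and IL1B.

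The 14 receptor chains listed include OSMR, which serves oncostatin M and none of the 10 cytokines. Of these 14, 7 reached 1 FPKM in any library, OSMR among them, and 7 did not. Of the former, 1 was higher on day 3 (8.13% of all genes), none was past 2-fold on day 6 (9.01% higher and 6.42% lower) and 1 was lower on day 9 (6.52%), which is near the shares of all genes. Their median log2 ratio was 0.13, 0.17 and 0.11 on days 3, 6 and 9, while that of all genes was -0.08, -0.08 and -0.09. The shared chain IL6ST measured 55.8, 49.4, 67.2 and 78.7 FPKM, and LIFR, the partner chain for LIF, 16.2, 14.3, 15.4 and 15.5 FPKM.

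The specific chains IL6R, IL11RA and IL1R1 were lower than IL6ST, as were OSMR and the partner chain IL1RAP. IL6R, the specific chain for IL6, measured 1.60, 0.476, 0.835 and 0.255 FPKM, and its log2 ratio of -1.05 on day 9 was past 2-fold. IL11RA measured 10.7, 11.8, 9.56 and 10.3 FPKM and OSMR, which serves oncostatin M, 41.2, 47.5, 46.4 and 44.5 FPKM. For IL-1, IL1R1 measured 2.87, 4.22, 3.99 and 4.27 FPKM, and its partner IL1RAP 10.8, 22.8, 21.7 and 20.2 FPKM, with a day 3 log2 ratio of 1.02.

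The 7 chains below the minimum are named here after their values were seen. The receptor chains for CSF2 (CSF2RA and the shared chain CSF2RB), CSF3 (CSF3R) and IL33 (IL1RL1) did not reach 1 FPKM in any library. The highest value was 0.481 for CSF2RB on day 9. Of the chemokine receptors, CCR2 and CCR3 were listed at 0 in all 4 libraries and CCR1 in all but day 6, when it measured 0.0173 FPKM. These values are of mRNA, and receptor protein was not measured.

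**Figure D4:**
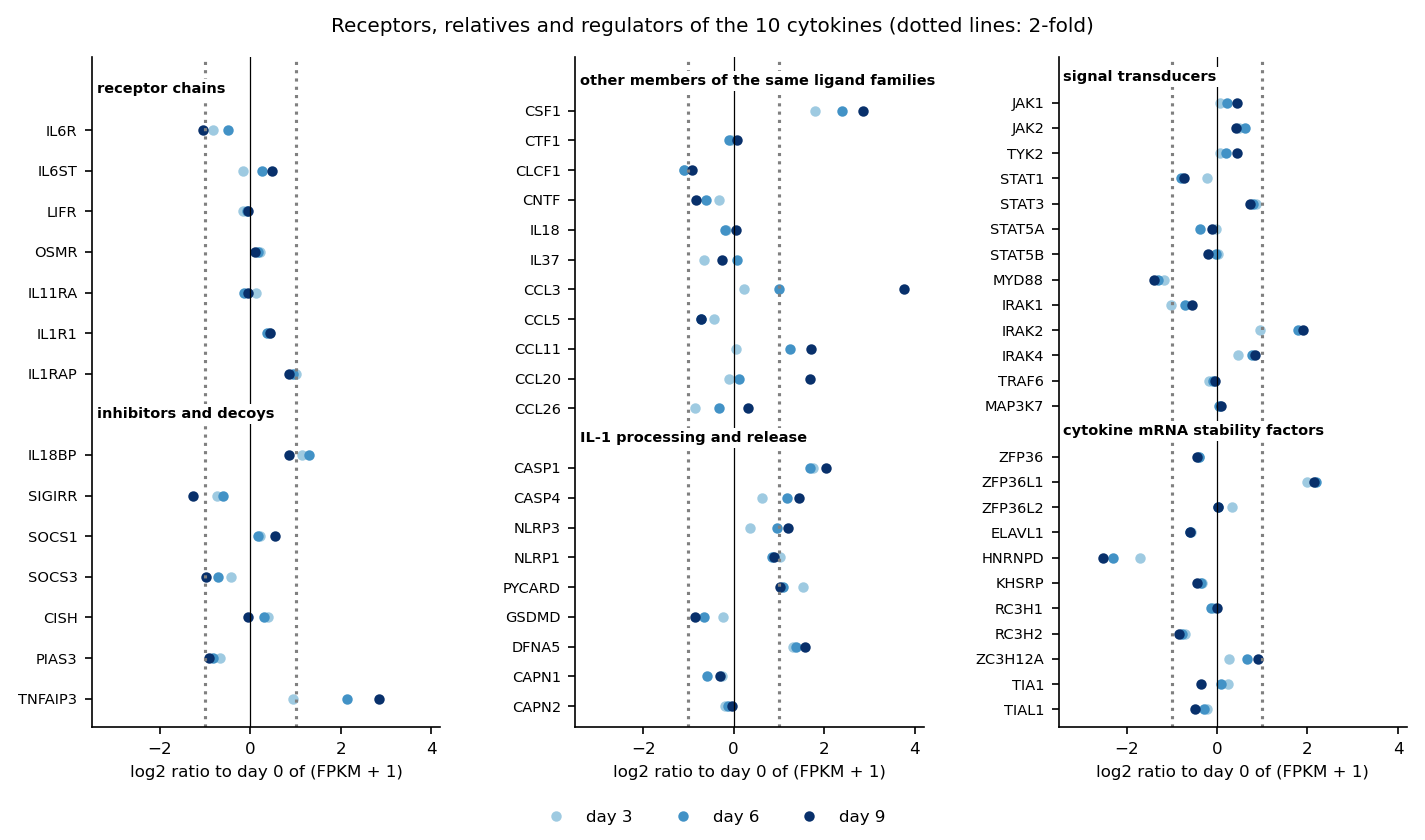
Log2 ratios to day 0 of (FPKM + 1) (x axis) on days 3, 6 and 9 (light to dark points, 1 library each) for the genes of 6 lists that reached 1 FPKM in any library, with dotted lines at 2-fold. Receptor chains lie mostly between the dotted lines, whereas in the list of IL-1 processing and release CASP1, PYCARD and DFNA5 lie to the right of 2-fold on all 3 days.

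Among genes that process and release IL-1, 9 of 10 in the table reached 1 FPKM, of which 4, 4 and 5 were higher on days 3, 6 and 9 (8.13%, 9.01% and 9.6% of all genes). None was lower, against 5.3%, 6.42% and 6.52% of all genes, which over 9 genes is near the same. The median log2 ratio was 0.63, 0.97 and 1.03. CASP1, the protease that cleaves the IL1B precursor, measured 2.59, 11.1, 10.6 and 13.7 FPKM and its log2 ratio on day 9 was 2.03. PYCARD, the inflammasome adaptor ASC, measured 0.296, 2.73, 1.77 and 1.64 FPKM (1.03), and DFNA5, the pore-forming protein also called GSDME, 13.7, 35.6, 37.4 and 43.3 FPKM (1.59). These 3 genes were higher on all 3 days. Of the genes counted, PYCARD and NLRP3 reached 1 FPKM only through later days, when they were high.

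The other genes of that list past 2-fold on some day were chosen for naming after their values were seen. They are NLRP1 on day 3 (log2 ratio 1.02), CASP4 on days 6 and 9 (1.18 and 1.45) and the inflammasome sensor NLRP3 on day 9, which went from 0.635 FPKM on day 0 to 2.78 (1.21). GSDMD, the pore through which mature IL1B leaves macrophages, is named in the same way and measured 28.4, 23.9, 17.8 and 15.2 FPKM, within 2-fold on each day.

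Of 25 other genes listed with these ligand families, by name or by receptor, 11 reached 1 FPKM. On days 3, 6 and 9, 1, 2 and 4 of them were higher (8.13%, 9.01% and 9.6% of all genes). On each of days 3 and 6, 1 was lower (5.3% and 6.42%). The counts of days 3 and 6 are near the shares of all genes. That of day 9 rests on CSF1, CCL3, CCL11 and CCL20. Of these, the 3 chemokines reached 1 FPKM only through later days, when they were high, so that this count is no result about the list. The median log2 ratio of the 11 genes was -0.17, -0.10 and 0.07. CSF1, the macrophage growth factor that osteoclast precursors also need, is listed for its name and not for a receptor shared with any of the 10. It was the only one of the 11 higher on all 3 days, with 12.2, 44.7, 68.9 and 94.6 FPKM (1.79, 2.40 and 2.85). Named after their values were seen, the others past 2-fold were the chemokines CCL11 (1.24 on day 6 and 1.72 on day 9), CCL3 (3.76 on day 9, when it measured 12.5 FPKM after being listed at 0 on day 0) and CCL20 (1.68 on day 9), and, in the other direction, CLCF1 (-1.10 on days 3 and 6). IL3 and IL5, whose receptors share a chain with that of CSF2 and which are named in the same way, were at most at 0.0473 and 0.155 FPKM.

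Of 11 inhibitors and decoys, 7 reached 1 FPKM, with 1, 2 and 1 higher (8.13%, 9.01% and 9.6% of all genes) and 0, 0 and 1 lower (5.3%, 6.42% and 6.52%) on days 3, 6 and 9. These few are no result about the list, which had median log2 ratios of 0.20, 0.16 and -0.06. None was past 2-fold on all 3 days. Genes of this list were named after their values were seen. The antagonist IL1RN did not exceed 0.127 FPKM and the decoy receptor IL1R2 was listed at 0 throughout. The genes past 2-fold were TNFAIP3, a brake on NF-kB signalling, with 7.90, 16.0, 38.1 and 63.3 FPKM (2.14 on day 6 and 2.85 on day 9), IL18BP (1.15 on day 3 and 1.30 on day 6) and SIGIRR (-1.26 on day 9).

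Of 14 signal transducers 13 reached 1 FPKM. On days 3, 6 and 9, 0, 1 and 1 of them were higher (8.13%, 9.01% and 9.6% of all genes) and 2, 1 and 1 lower (5.3%, 6.42% and 6.52%), with medians of 0.06, 0.05 and 0.09. These counts are near the shares of all genes. MYD88, the adaptor of IL-1 receptors, was lower on all 3 days, with 20.4, 8.52, 7.71 and 7.14 FPKM (log2 ratios of -1.17, -1.30 and -1.40). Named after their values were seen, IRAK1 was lower on day 3 (-1.02) and IRAK2 higher on days 6 and 9 (1.79 and 1.89).

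Cytokine mRNAs are known to be short-lived through AU-rich elements to which stability factors bind. All 11 such factors reached 1 FPKM, with 1 higher (8.13%, 9.01% and 9.6% of all genes) and 1 lower (5.3%, 6.42% and 6.52%) on each day, near the shares of all genes, and median log2 ratios of -0.23, -0.28 and -0.43. ZFP36L1, which promotes decay, was higher on all 3 days, with 34.1, 138, 158 and 154 FPKM (1.99, 2.18 and 2.14). HNRNPD (AUF1), which binds the same elements, was lower on all 3 days, with 316, 96.3, 63.9 and 54.6 FPKM (-1.70, -2.29 and -2.51).

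Markers of the labelled cell type and of other cells were set beside these results. Of 10 osteoblast markers 7 reached 1 FPKM, while IBSP, BGLAP and SP7 stayed below 1 FPKM in every library. The list summed to 2089, 4469, 3839 and 3113 FPKM on days 0, 3, 6 and 9. Most of this sum came from the matrix genes COL1A1, COL1A2 and SPARC, and it was lower at each step after day 3. Those genes, RUNX2 and BGN were each lower at both of these steps. By contrast, SPP1 measured 0.794, 1.89, 5.14 and 7.45 FPKM on days 0, 3, 6 and 9, and ALPL 0.294, 4.32, 4.35 and 4.18 FPKM. Of 9 immune markers 2 reached 1 FPKM, CD14 only on day 0 (1.07 FPKM) and CD68, a lysosomal protein abundant in macrophages, with 16.2, 37.5, 65.1 and 90.6 FPKM. The immune list summed to between 17.5 and 92.1 FPKM, nearly all of it CD68, which moved with the cytokines. The defining leukocyte gene PTPRC measured 0.0750, 0.295, 0.0441 and 0.441 FPKM, and CD3E was listed at 0 in all libraries. The 3 endothelial markers summed to at most 0.528 FPKM. Any part of CD68 or of other cells in the cytokine values was not tested.

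The number of fragments behind FPKM is not in the table. The study lists read totals per time point, which were not used here, and the relative worth of 1 fragment was read from genes at the lowest values instead. In genes with 1 transcript and less than 0.3 FPKM, the commonest ratio to day 0 was 1.27 on day 3 (97 of 528 genes within 0.5% of it), 1.19 on day 6 (73 of 552) and 1.03 on day 9 (60 of 545). Read this way, a single fragment was worth more FPKM in the later libraries than on day 0. These ratios come from the commonest value, which most of the low genes did not share. They were not set against the study's read totals. Any part of sequencing depth in the changes of CSF2, IL6, IL1A, IL1B and CCL2 was not tested.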

How the data were processed

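The authors deposited FPKM per transcript for mRNAs and for lncRNAs in 4 libraries. According to the study's methods, ribosomal RNA was removed, RNase R was applied in making the mRNA libraries but not those for circRNAs, a directional kit was used, and reads were aligned with Bowtie and TopHat. RNase R degrades linear RNA and spares circRNAs, so that use is unusual, and whether the mRNA FPKM come from treated RNA cannot be settled from the sources used here. Its effect on these values was not tested. The submitters' processing notes name Bowtie 0.12.2 and the mouse build mm8, which does not match the human gene IDs of the table. The program behind the FPKM and the annotation are not given in the sources used here. No lncRNA symbol among 4583 transcripts was named after a member. The 9 deposited tables of fold changes, p-values and q-values were not used, nor were the circRNA tables.

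Libraries were grouped by the day in their labels. FPKM was summed per symbol and log2 ratios were taken after adding 1, with a minimum of 1 FPKM in any library and a limit of 2-fold. With 1 library per day no test was made. The members and gene lists were chosen with earlier results of these data known. Named genes were all members, receptor chains that passed the minimum, listed genes past 2-fold the same way on all 3 later days (up to 4 per list), and the 3 genes nearest in pattern to CSF2, IL6 and IL1B. Other listed genes in the text were named after their values were seen. Alternatives were another added value (0.1 or 0.5), other minimums (0.1, 5 or none), a 4-fold limit, median-of-ratios or upper-quartile scaling, the highest transcript alone, sums per gene ID, day 3 or 6 as reference, and Pearson's correlation for likeness. Promoters were from RefSeq (GRCh38.p14). Python 3.11.15, numpy 2.4.6, pandas 2.3.3 and matplotlib 3.10.9 were used, and the ratios were tested on simulated data.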

Additional observations from a re-analysis of the deposited data

How the results depend on the processing

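Over the alternatives, the 10 genes had 300 ratios to day 0, each called or not by the minimum FPKM and the limit in use. Of these, 292 were as in the main setting, 7 lost their call, 1 gained it and 0 of those called changed direction. Other minimums, the 4-fold limit and sums per gene ID left each ratio itself unchanged, so many of the 300 repeat the same ratios. Their number is therefore no measure of how firm the ratios are. IL33, below the minimum of 1 FPKM, could not be called with 0.1 added, whatever its ratio. CSF3 on day 6, within 2-fold, was 0 with the highest transcript alone (main 0.51). With a 4-fold limit, 3, 6 and 7 of the 9 cytokine genes were higher on days 3, 6 and 9, against 1.66%, 2.01% and 2.34% of all genes. On all 3 days 3 were higher, from day 3 to day 6 1 and from day 6 to day 9 0. For these the share of all genes at 4-fold was not computed. Of the listed genes, pooled over the 6 lists, 0, 3 and 5 were higher and 0, 1 and 1 lower on days 3, 6 and 9. In the main setting 8, 10 and 12 were higher and 4, 3 and 4 lower. The pooled counts show only how a setting acts and are no result about the lists. With 0.1 added to FPKM, 7 listed genes were lower on day 3 and 8 on day 9, and with 0.5 added 7 were lower on day 9. CSF3 passed the limit on day 6 with 0.1 added (2.39), missed 4-fold on day 9 (2.0) and dropped out with a minimum of 5 FPKM. Scaling by median-of-ratios or upper-quartile factors left 2 listed genes lower on day 3. Median-of-ratios scaling moved the median log2 ratio of all genes on day 3 from -0.08 to 0.04, and higher genes then made up 72.3%, 70.5% and 69.7% of those past 2-fold on days 3, 6 and 9 (upper quartile 72.2%, 70.3% and 67.8%; main 60.6%, 58.4% and 59.6%). The counts of cytokine genes past 2-fold were the same under both scalings. With day 6 as the reference, LIF (0.54), CCL2 (0.18) and CCL7 (0.54) were within 2-fold on day 9, as was LIF against day 3 (0.64). IL11, within 2-fold throughout, had -0.28 on day 9 against day 3 and -0.04 against day 6 (main 0.09). No paired analysis was possible because there was 1 library per day. Values near 0 on day 0 (CSF2, CSF3, IL33 and CCL7) are limited by depth, and the number of fragments behind each FPKM is not given with it.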
